A study of Homo sapiens with 8 samples.

Results

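The 37 genes of the human mitochondrial genome were followed through sorafenib-sensitive and sorafenib-resistant liver cancer cells. They were chosen by name, as every Ensembl identifier of the deposited values whose symbol starts with MT-, and this gave 37 of the 63241 identifiers listed, 13 for mRNAs, 2 for rRNAs and 22 for tRNAs. The cells were HepG2 and Huh7, both long-established lines from human liver tumours, in a parental, sensitive form (WT) and in a sorafenib-resistant form (SR), selected by stepwise higher doses of that multikinase inhibitor. Each line and form was a group of 2 libraries, which makes 4 groups and 8 libraries, and the labels give the treatment as control for WT and sorafenib for SR and place all libraries in a single batch. Both lines were kept as cell cultures in the same medium with serum, and the sources used here do not say whether an SR line is a single clone, nor whether the drug was present at harvest. Polyadenylated RNA was enriched on oligo(dT) beads before library preparation. The deposited unit is FPKM, fragments scaled by the length of the gene and by the size of the library, so that levels are per length and can be compared between genes. The labels do not say that the replicates came from separate cultures, so p-values measure only the spread between these libraries. That spread may in part be technical, and in every group but HepG2 WT it includes a difference between unlike profiles, set out below.

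The mitochondrial genome is a small circular DNA that is present in many copies per cell and is transcribed by its own RNA polymerase, POLRMT, with the help of TFAM and TFB2M. Long transcripts of either strand are cut at the tRNAs that punctuate the mRNAs and rRNAs. Most of the mRNAs then receive short poly(A) tails from MTPAP and are held stable by LRPPRC and SLIRP. All its mRNAs encode membrane subunits of complexes I, III, IV and V of the respiratory chain and ATP synthase, and the rRNAs and tRNAs serve the ribosomes that translate those mRNAs inside the organelle. Hepatocytes hold many mitochondria, and each of these complexes also needs subunits from nuclear genes.

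Several properties of the genes bear on how their FPKM can be read, and the sequences below, from the GENCODE 29 transcripts of GRCh38, show them. MT-ATP8 and MT-ATP6, both subunits of the ATP synthase, overlap by 46 bases, which is 22.2% of MT-ATP8 and 6.75% of MT-ATP6. MT-ATP8 lies on the plus strand at chrM:8366-8572 and MT-ATP6 at chrM:8527-9207, and the shared bases are in capitals in the whole of MT-ATP8 and in the first 60 bases of MT-ATP6. A fragment from the shared bases could be given to either gene, and the rule by which the authors assigned it is not given in the sources used here.
MT-ATP8: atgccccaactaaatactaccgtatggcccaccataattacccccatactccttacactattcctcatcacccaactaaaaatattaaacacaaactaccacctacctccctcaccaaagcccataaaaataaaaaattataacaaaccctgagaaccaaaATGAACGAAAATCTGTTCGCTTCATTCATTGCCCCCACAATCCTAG
MT-ATP6: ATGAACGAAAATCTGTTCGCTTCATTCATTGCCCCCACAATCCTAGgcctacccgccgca

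MT-ND4L and MT-ND4, both complex I subunits, overlap by 7 bases, in capitals in the first 60 bases of MT-ND4 at chrM:10760-10819 (plus strand). MT-ND4L itself lies at chrM:10470-10766, ends on those bases and reads them in another frame.
MT-ND4: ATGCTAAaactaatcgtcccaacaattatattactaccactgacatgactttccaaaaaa

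MT-ATP6 shares the last base of its annotated stop codon with MT-CO3 and is not counted here. By the annotated gene ends, 6 of the 13 mRNAs end on an incomplete stop codon that only the poly(A) tail turns into a full one. This end is shown because the same tail is what oligo(dT) beads bind. The last 30 bases of each follow, with the incomplete stop codon in capitals, TA in MT-ND1 and T in the others, all on the plus strand and each ending at the last base of its gene.
MT-ND1: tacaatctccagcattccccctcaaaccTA
MT-ND2: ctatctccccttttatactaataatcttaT
MT-CO3: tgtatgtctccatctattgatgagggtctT
MT-ND3: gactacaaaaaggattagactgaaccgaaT
MT-ND4: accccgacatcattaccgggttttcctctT
MT-CYB: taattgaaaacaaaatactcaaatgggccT

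The tRNA genes were between 59 and 75 bases long, and the 3 with the highest and the 3 with the lowest mean FPKM are printed because they lay far apart in level at nearly equal length. MT-TC (chrM:5761-5826), MT-TY (chrM:5826-5891) and MT-TN (chrM:5657-5729) were the highest and lie side by side on the minus strand, where MT-TC and MT-TY share 1 base. MT-TD (chrM:7518-7585), MT-TW (chrM:5512-5579) and MT-TK (chrM:8295-8364) were the lowest and lie on the plus strand. Their sequences are written on the strand of the gene, and G and C made up 45.5%, 42.4% and 41.1% of the bases of MT-TC, MT-TY and MT-TN and 23.5%, 35.3% and 32.9% of those of MT-TD, MT-TW and MT-TK. These genes do not stand for all 22. MT-TQ, with 48.6%, had a mean of 37.5 FPKM, and MT-TL1, with 38.7%, a mean of 887 FPKM. A relation of G and C to level was not tested.
MT-TC: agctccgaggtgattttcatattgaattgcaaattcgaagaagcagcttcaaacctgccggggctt
MT-TY: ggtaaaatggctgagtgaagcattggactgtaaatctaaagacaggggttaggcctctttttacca
MT-TN: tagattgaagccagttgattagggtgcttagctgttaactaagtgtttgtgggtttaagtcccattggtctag
MT-TD: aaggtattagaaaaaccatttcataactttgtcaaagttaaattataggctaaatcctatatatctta
MT-TW: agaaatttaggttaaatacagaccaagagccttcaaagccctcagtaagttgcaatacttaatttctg
MT-TK: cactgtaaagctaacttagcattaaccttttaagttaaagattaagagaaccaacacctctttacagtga

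Before the results, 3 libraries have to be set apart. Over the genes tested outside the mitochondrial genome, Pearson's r of log2(FPKM + 1) was 0.911 to 0.976 among 5 libraries, namely both of HepG2 WT, replicate 1 of HepG2 SR, and replicate 2 of Huh7 WT and of Huh7 SR. Replicate 1 of Huh7 WT and replicate 1 of Huh7 SR resembled each other (r = 0.964) more than those 5 (0.722 to 0.777), and for replicate 2 of HepG2 SR r was 0.769 to 0.841 with the other 7. Genes are not independent replicates, and these r are a description. Of 7 liver markers, 6 stood at 1 FPKM or more in every library, and TTR was below 1 in replicate 1 of either Huh7 group. ALB, the serum albumin of hepatocytes, stood at 12 and 42.3 FPKM in those 2 libraries and between 604 and 4713 in the other 6. All 3 epithelial markers were present in every library, the summed FPKM of 4 fibroblast markers lay between 0.0503 and 8.55, that of 3 endothelial markers between 0.772 and 4.52, and of the blood markers PTPRC and CD3E were at or near 0 while CD68 stood at 3.94 to 29.1 FPKM in all 8 libraries. Replicate 2 of Huh7 WT and of Huh7 SR thus resembled 3 of the 4 HepG2 libraries more than they resembled replicate 1 of either Huh7 group, which goes against the cell line named in the labels. The groups were left as labelled, and each value below for Huh7, for Huh7 against HepG2 or for both lines together carries that doubt. For the share, the counts of members called and the lists of nuclear genes, values without the 3 libraries are given as well, a choice made with results of these data known and, for the lists, after their values were seen.

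Transcripts of the mitochondrial genome took a large share of the FPKM of every library. Their share was 14.3% and 19.2% in HepG2 WT, 14.9% and 16.5% in HepG2 SR, 20.9% and 19.9% in Huh7 WT, and 18.6% and 25.7% in Huh7 SR, each pair being replicates 1 and 2 in that order, as in every sentence that follows. All 37 genes were listed above 0 in every library and passed the filter on low values, 1 FPKM or more in 2 libraries or more. Between 7 and 9 of the 10 genes with the highest FPKM in a library were mitochondrial, and between 13 and 16 of the highest 20. MT-CO1 had the highest FPKM of all genes in 7 libraries, and MT-RNR2 in Huh7 WT replicate 2. Weighted by gene length, which gives an estimate of the share of fragments, the 37 genes made up between 3.17% and 6.59%. In bulk RNA, fewer cells of a type and less RNA per cell cannot be told apart, and a share can rise through more mitochondrial or through less nuclear RNA.

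The share did not differ between SR and WT beyond the spread between replicates. In HepG2 it was 16.7% ± 3.45 (SD, n = 2) in WT and 15.7% ± 1.14 in SR, a difference of -1.07 percentage points, and both SR values lay between the WT values. In Huh7 it was 20.4% ± 0.768 in WT and 22.1% ± 5.01 in SR (n = 2 each), a difference of 1.73 points, with 1 SR library below and 1 above both WT libraries. A two-sided exact permutation test gave p = 1 in either line, where 2 against 2 libraries cannot go below 0.333. Over both lines, SR minus WT was 0.330 points (18.6% ± 2.94 in WT, 18.9% ± 4.76 in SR, n = 4 each, exact permutation p = 0.943). Without the 3 libraries that stood apart, the differences were -1.87 points in HepG2, 5.81 in Huh7, where 1 library was left on either side, and 2.49 over both lines (exact permutation p = 0.6). The sign turned where single libraries were left out: SR minus WT was 1.38 points in HepG2 without HepG2 WT replicate 2, and -1.81 in Huh7 without Huh7 SR replicate 2. Over both lines it was -1.09 without HepG2 WT replicate 1 and -1.93 without Huh7 SR replicate 2.

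Between the lines the gap was wider. The 4 Huh7 libraries averaged 21.3% ± 3.09 and the 4 HepG2 libraries 16.2% ± 2.19, a difference of 5.06 points (SD, n = 4 each, two-sided exact permutation p = 0.0571, where 0.0286 is the smallest possible). Adjusted over the 4 comparisons of the share, p was 0.229, so that the difference did not pass. Leaving out each library in turn gave differences between 3.59 and 6.05 points. Without the 3 libraries that stood apart it was 6.65 points, with both remaining Huh7 libraries above all 3 HepG2 libraries (exact permutation p = 0.2, the smallest that 3 against 2 allow).

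The mRNAs made up the bulk of this signal. They held 59.2% to 85.0% of the mitochondrial FPKM of a library, the rRNAs 4.71% to 28.7% and the tRNA genes 7.40% to 13.5%. As a share of all FPKM, the 13 mRNAs stood at 10.5% and 14.8% in HepG2 WT, 10.9% and 14% in HepG2 SR, 17.7% and 11.8% in Huh7 WT, and 15.1% and 18.8% in Huh7 SR. The lowest Huh7 value, that of WT replicate 2, lay inside the HepG2 range. Among the mRNAs, complex IV took 38.7% to 48.7% of the FPKM, complex I 34.7% to 45.8%, complex V 10.8% to 17.4% and complex III, with its single gene, 3.88% to 6.66%.

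Complex IV, cytochrome c oxidase, passes electrons to oxygen, and its 3 mitochondrial genes encode the core of the enzyme. MT-CO1, the catalytic subunit, stood at 8739 and 12152 FPKM in WT and 9857 and 8839.5 in SR of HepG2, and at 10818 and 7709.5 in WT and 10219 and 20219 in SR of Huh7. Huh7 SR replicate 2 was the highest and Huh7 WT replicate 2 the lowest, so that the libraries of Huh7 WT and Huh7 SR spanned the whole range and overlapped. MT-CO2, which takes electrons from cytochrome c, stood at 6377 and 9589 FPKM in WT and 6472 and 8462 in SR of HepG2, and at 9965 and 3725 in WT and 9147 and 11341 in SR of Huh7. Again Huh7 WT replicate 2 was the lowest and Huh7 SR replicate 2 the highest. MT-CO3, the third core subunit, stood at 3597 and 4749 FPKM in WT and 4906 and 8188 in SR of HepG2, and at 8067 and 6955 in WT and 8131 and 7339.6 in SR of Huh7. Both HepG2 SR libraries lay above both HepG2 WT libraries, HepG2 SR replicate 2 by more, and all 4 Huh7 libraries and HepG2 SR replicate 2 lay above the other 3. The log2 fold change of MT-CO3 in HepG2 was 0.62 (SE 0.41, limma adjusted p = 0.956), within the spread.

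Complex I, NADH dehydrogenase, has 7 subunits from the mitochondrial genome, all of its membrane arm. MT-ND4, one of its proton-pumping subunits, stood at 4579 and 7119 FPKM in WT and 4802 and 6509.5 in SR of HepG2, and at 9239 and 4979 in WT and 7061 and 9019 in SR of Huh7. MT-ND4L, which shares an mRNA with MT-ND4, stood at 3275 and 4845 FPKM in WT and 3503 and 3616 in SR of HepG2, and at 4277 and 3554 in WT and 4470.1 and 5481 in SR of Huh7. The ratio of MT-ND4L to MT-ND4 lay between 0.463 in Huh7 WT replicate 1 and 0.729 in HepG2 SR replicate 1, and in Huh7 both SR libraries of MT-ND4L lay above both WT libraries.

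MT-ND1, at the junction of the arms, stood at 2076 and 2800.1 FPKM in WT and 2587 and 3161 in SR of HepG2, and at 2567 and 6091 in WT and 2708 and 4569 in SR of Huh7. Huh7 WT replicate 2 was the highest, and the libraries of WT and SR overlapped in both lines. MT-ND2, a proton-pumping subunit, stood at 1505 and 2342 FPKM in WT and 1909.6 and 3450.4 in SR of HepG2, and at 3004 and 3609 in WT and 2771 and 3287 in SR of Huh7. HepG2 WT replicate 1 was the lowest and the 4 Huh7 libraries lay close together. MT-ND3, a small subunit, stood at 1085 and 1786 FPKM in WT and 1471 and 1638 in SR of HepG2, and at 1438 and 1685 in WT and 1642 and 1941 in SR of Huh7. Its highest library was 1.79 times the lowest, and WT and SR overlapped in both lines.

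MT-ND5, the subunit at the end of the membrane arm, stood at 1608 and 2408 FPKM in WT and 1444 and 1408 in SR of HepG2, and at 2142 and 1267 in WT and 2125 and 2815 in SR of Huh7. Both HepG2 SR libraries lay below both HepG2 WT libraries, while the Huh7 libraries overlapped. MT-ND6, the single mRNA on the minus strand (chrM:14149-14673), stood at 1226 and 1811 FPKM in WT and 974 and 1054 in SR of HepG2, and at 1577 and 569.8 in WT and 1553 and 1994 in SR of Huh7. Both HepG2 SR libraries lay below both HepG2 WT libraries, and Huh7 WT replicate 2 was the lowest of all. The ratio of MT-ND6 to MT-ND5, its neighbour on the opposite strand, lay between 0.674 and 0.763 in 7 libraries and was 0.450 in Huh7 WT replicate 2. The library kit named in the labels does not mark strand, so reads of MT-ND6 and reads of the opposite transcript over the same bases cannot be told apart. Whether MT-ND6 RNA carries a tail that the beads bind was not measured.

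MT-CYB, the cytochrome b of complex III, stood at 1568 and 2606 FPKM in WT and 1796 and 3243 in SR of HepG2, and at 4538 and 1886 in WT and 3578 and 3142 in SR of Huh7. The highest were Huh7 WT replicate 1 and Huh7 SR replicate 1, and WT and SR overlapped in both lines. MT-ATP6, the proton channel subunit of complex V, stood at 3376 and 4604 FPKM in WT and 3834 and 7490.2 in SR of HepG2, and at 7959 and 4013 in WT and 6748 and 6294 in SR of Huh7. MT-ATP8, the small subunit that shares the capital bases printed above with MT-ATP6, stood at 1422 and 1733 FPKM in WT and 1241 and 2980.0 in SR of HepG2, and at 2513 and 1437 in WT and 2714 and 2372 in SR of Huh7. The 3 libraries that stood apart held the 3 highest values of MT-CYB, MT-ATP6, MT-ATP8 and MT-CO3, a set named after its values were seen. The ratio of MT-ATP8 to MT-ATP6 stayed between 0.316 and 0.421.

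The rRNAs varied more than the mRNAs. MT-RNR2, the 16S rRNA of the large ribosomal subunit (chrM:1671-3229, plus strand), stood at 6325 and 6524 FPKM in WT and 6818 and 3605 in SR of HepG2, and at 3288 and 18649 in WT and 4558 and 11730.1 in SR of Huh7. MT-RNR1, the 12S rRNA of the small subunit (chrM:648-1601, plus strand), stood at 1618 and 1401 FPKM in WT and 1306 and 1797 in SR of HepG2, and at 510.2 and 4386 in WT and 708 and 3568 in SR of Huh7. For both, Huh7 WT replicate 1 was the lowest and Huh7 WT replicate 2 the highest, so that the replicates of a single group marked both ends of the range. MT-RNR2 was 5.67 times and MT-RNR1 8.60 times as high in the highest as in the lowest library. The ratio of summed rRNA to summed mRNA FPKM ran from 0.0558 in Huh7 WT replicate 1 to 0.485 in Huh7 WT replicate 2, and stood at 0.196 and 0.135 in HepG2 WT, 0.181 and 0.0900 in HepG2 SR, and 0.0838 and 0.192 in Huh7 SR. It was below 0.1 in the 3 libraries that stood apart and at 0.135 or above in the other 5. Oligo(dT) beads select RNA with a tail, and the tailing of the rRNAs was not measured.

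**Figure D1:**
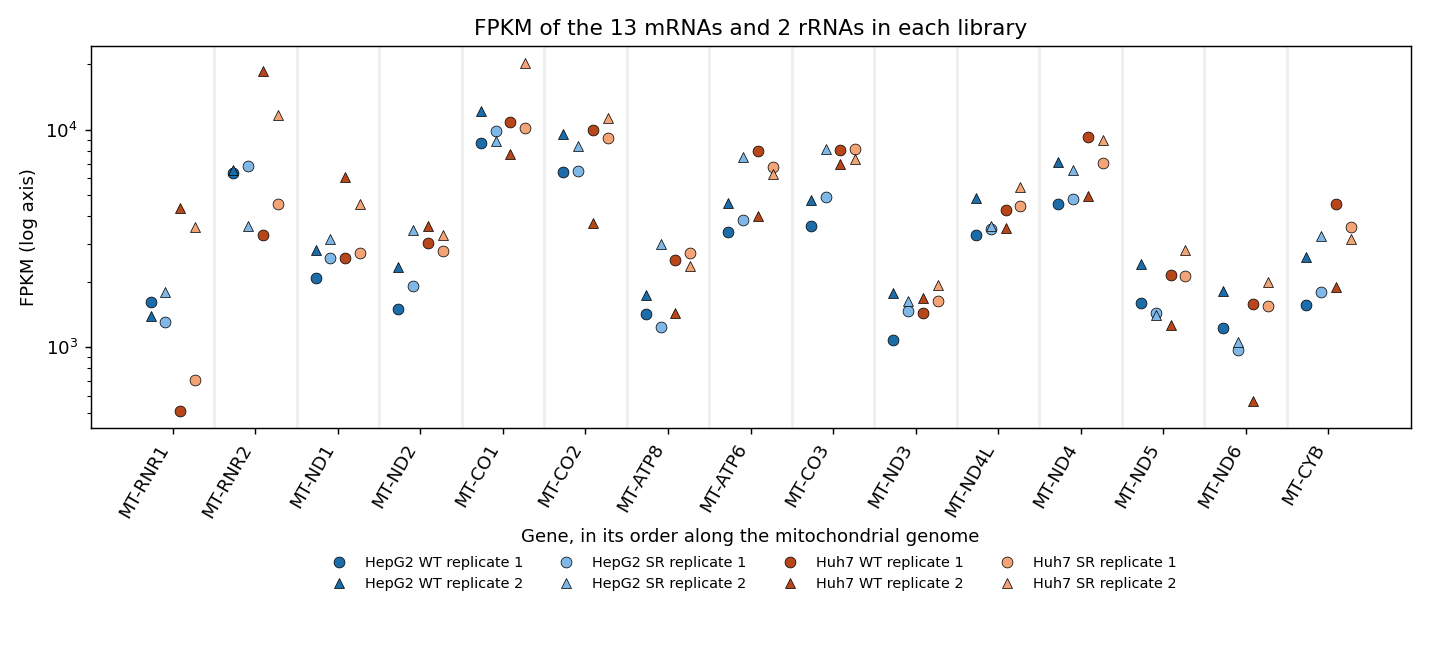
FPKM (log axis) of the 2 rRNAs and 13 mRNAs in their order along the genome, 1 point per library, blue for HepG2 and red for Huh7, dark for WT and light for SR, circles for replicate 1 and triangles for replicate 2. MT-RNR1 and MT-RNR2 spread from Huh7 WT replicate 1 at the bottom to Huh7 WT replicate 2 at the top, while MT-ND3 and MT-ND4L stay within 1.79 times and 1.67 times between lowest and highest.

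Over all 8 libraries the median standard deviation of log2(FPKM + 1) was 0.45 for the 13 mRNAs, 0.95 for the 2 rRNAs and 0.65 for the 22 tRNA genes, against 0.50 for the other 15136 genes tested and 0.52 for the 491 of those with a mean FPKM of at least 100. MT-ND3 (0.25) and MT-ND4L (0.26) were at the low end, and MT-TD (1.18) and MT-RNR1 (1.05) at the high end. The mRNAs moved about as much between libraries as other genes did. HepG2 WT replicate 1 gave the lowest value of 8 mRNAs and Huh7 WT replicate 2 of 4, while Huh7 SR replicate 2 gave the highest of 6.

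FPKM at the tRNA genes split by the strand on which the gene lies. On the minus strand of the reference, the median of 8 tRNA genes lay between 398 and 1099 FPKM in a library, and on the plus strand the median of 14 lay between 50.5 and 231. The higher median was that of the minus-strand genes in every library. Since the library kit does not mark strand, reads of either strand over a tRNA gene cannot be told apart. MT-TC stood at 1232 and 2027 FPKM in WT and 1594 and 728 in SR of HepG2, and at 1931 and 1306 in WT and 2118 and 2848 in SR of Huh7. MT-TY stood at 1234 and 1912 FPKM in WT and 1585 and 739.6 in SR of HepG2, and at 1946 and 1159 in WT and 2037 and 2762 in SR of Huh7. MT-TN, somewhat lower, stood at 886 and 1493 FPKM in WT and 1201 and 534 in SR of HepG2, and at 1280.2 and 1015 in WT and 1446 and 2160.1 in SR of Huh7. These tRNAs carry cysteine, tyrosine and asparagine, and with their neighbour MT-TA, for alanine, they held 41.9% to 69.2% of all tRNA FPKM. In all 4 of them HepG2 SR replicate 2 was the lowest and Huh7 SR replicate 2 the highest, and both Huh7 SR libraries lay above both Huh7 WT libraries.

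The other tRNA genes of the minus strand were MT-TS1 (455 to 1089 FPKM), MT-TE (166 to 683 FPKM), MT-TP (76.6 to 365 FPKM) and MT-TQ (19 to 89.3 FPKM), the last being low on either strand's scale. At the low end of the plus strand, MT-TD, the tRNA for aspartate, stood at 35.5 and 31.6 FPKM in WT and 38.9 and 27.2 in SR of HepG2, and at 11.5 and 91.9 in WT and 5.65 and 48.8 in SR of Huh7. MT-TW, for tryptophan, stood at 20.2 and 28.3 FPKM in WT and 20.8 and 13.6 in SR of HepG2, and at 19.7 and 59.6 in WT and 17 and 35.1 in SR of Huh7. MT-TK, for lysine, stood at 22.1 and 25.1 FPKM in WT and 15.8 and 30.8 in SR of HepG2, and at 14.2 and 61.5 in WT and 18.4 and 13.3 in SR of Huh7. All 3 were highest in Huh7 WT replicate 2, and MT-TD had the widest range of all members, 16.3 times between Huh7 SR replicate 1 and Huh7 WT replicate 2. The highest tRNA gene of the plus strand was MT-TL1, for leucine, which follows MT-RNR2 directly and ranged from 571 to 1959.8 FPKM. The other 10 tRNA genes of the plus strand lay between 24.8 FPKM, for MT-TM in HepG2 WT replicate 1, and 367 FPKM, for MT-TT in Huh7 SR replicate 2. Each tRNA gene is shorter than a usual sequencing fragment, so its FPKM counts fragments that reach over it, and mature tRNAs and uncut precursors cannot be told apart.

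A few libraries held most of the extremes. Huh7 WT replicate 2 had the highest value of 10 of the 22 tRNA genes, among them 7 of the cluster from MT-TD to MT-TL2 along the plus strand, and Huh7 SR replicate 2 that of 9. HepG2 SR replicate 2 had the lowest value of 8, among them MT-TC, MT-TY, MT-TN and MT-TA, but the highest of MT-TI, MT-TQ and MT-TM, which lie next to each other between MT-ND1 and MT-ND2. MT-TI and MT-TQ overlap by 3 bases on opposite strands. MT-TI, for isoleucine, stood at 36.2 and 52.2 FPKM in WT and 50.3 and 129 in SR of HepG2, and at 47.1 and 50.9 in WT and 50.3 and 56.5 in SR of Huh7, and HepG2 SR replicate 2 lay far above the other 7 libraries. MT-TQ, for glutamine, stood at 19 and 32.3 FPKM in WT and 26.8 and 89.3 in SR of HepG2, and at 44.4 and 25.6 in WT and 39.5 and 23.4 in SR of Huh7, with the same library the highest.

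The question of the study was how cells that resist sorafenib differ from the parental cells, and it was asked here of each mitochondrial gene. With limma on log2(FPKM + 1), with 4 group means and 15173 genes tested, 0 of 37 members were called in HepG2 SR versus HepG2 WT at the thresholds of the study (unadjusted p under 0.05, log2 fold change from 0.5 upward or under -0.5), where 2.14% of all genes tested were called. In Huh7 SR versus Huh7 WT, limma likewise called 0 of 37, against 1.87% of all genes, 0.942% higher and 0.923% lower. The replicates of Huh7 differed from each other alike in WT and SR (r = 0.80 of their deviations over genes). This fit does not pair libraries and counted that difference as spread. Without the fold limit, the number of members at an unadjusted p under 0.05 was also 0 in each line. At a Benjamini-Hochberg adjusted p under 0.05, limma called 0 members and 0 genes of any kind in all comparisons made. Fold changes of the members lay between -0.68 (MT-TP) and 0.96 (MT-TQ) on the log2 scale in HepG2, and between -0.91 (MT-TD) and 1.04 (MT-TE) in Huh7. The standard errors ran from 0.38 for MT-ND3 to 1.15 for MT-TD, so that intervals were wide: for MT-CO1 the 95% interval was -1.29 to 1.0 in HepG2 and -0.49 to 1.80 in Huh7.

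Described by group, the 13 mRNAs had a median log2 fold change of 0.16 in HepG2, where 7 of 13 were above 0, and 0.23 in Huh7, where 11 of 13 were (10 after rescaling to a common sum and 6 after quantile normalization), beside medians of -0.03 and -0.05 over all genes tested. These medians rested on single libraries: leaving out each in turn, that of HepG2 ran from -0.20 without HepG2 WT replicate 1 to 0.44 without HepG2 WT replicate 2, and was -0.17 without HepG2 SR replicate 2. That of Huh7 ran from 0.03 without Huh7 WT replicate 2 to 0.70 without Huh7 WT replicate 1, and it was -0.03 after quantile normalization. Above 0 lay 47.6% of all genes in HepG2 and 44.7% in Huh7. In HepG2 the largest positive values were those of MT-CO3 at 0.62, MT-ND2 at 0.45 and MT-ATP6 at 0.44, and the largest negative ones those of MT-ND6 at -0.56 and MT-ND5 at -0.46. In Huh7 the order differed, with MT-ND6 at 0.89, MT-CO2 at 0.74 and MT-CO1 at 0.65 at the top and MT-ND1 at -0.17 at the bottom. The difference between the lines was tested for every member, and MT-ND6 had an interaction of 1.45 (SE 0.75, 95% interval -0.34 to 3.23), which was not called. Of the 22 tRNA genes, 10 were above 0 in HepG2 and 9 in Huh7, with medians of -0.06 and -0.14.

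**Figure D2:**
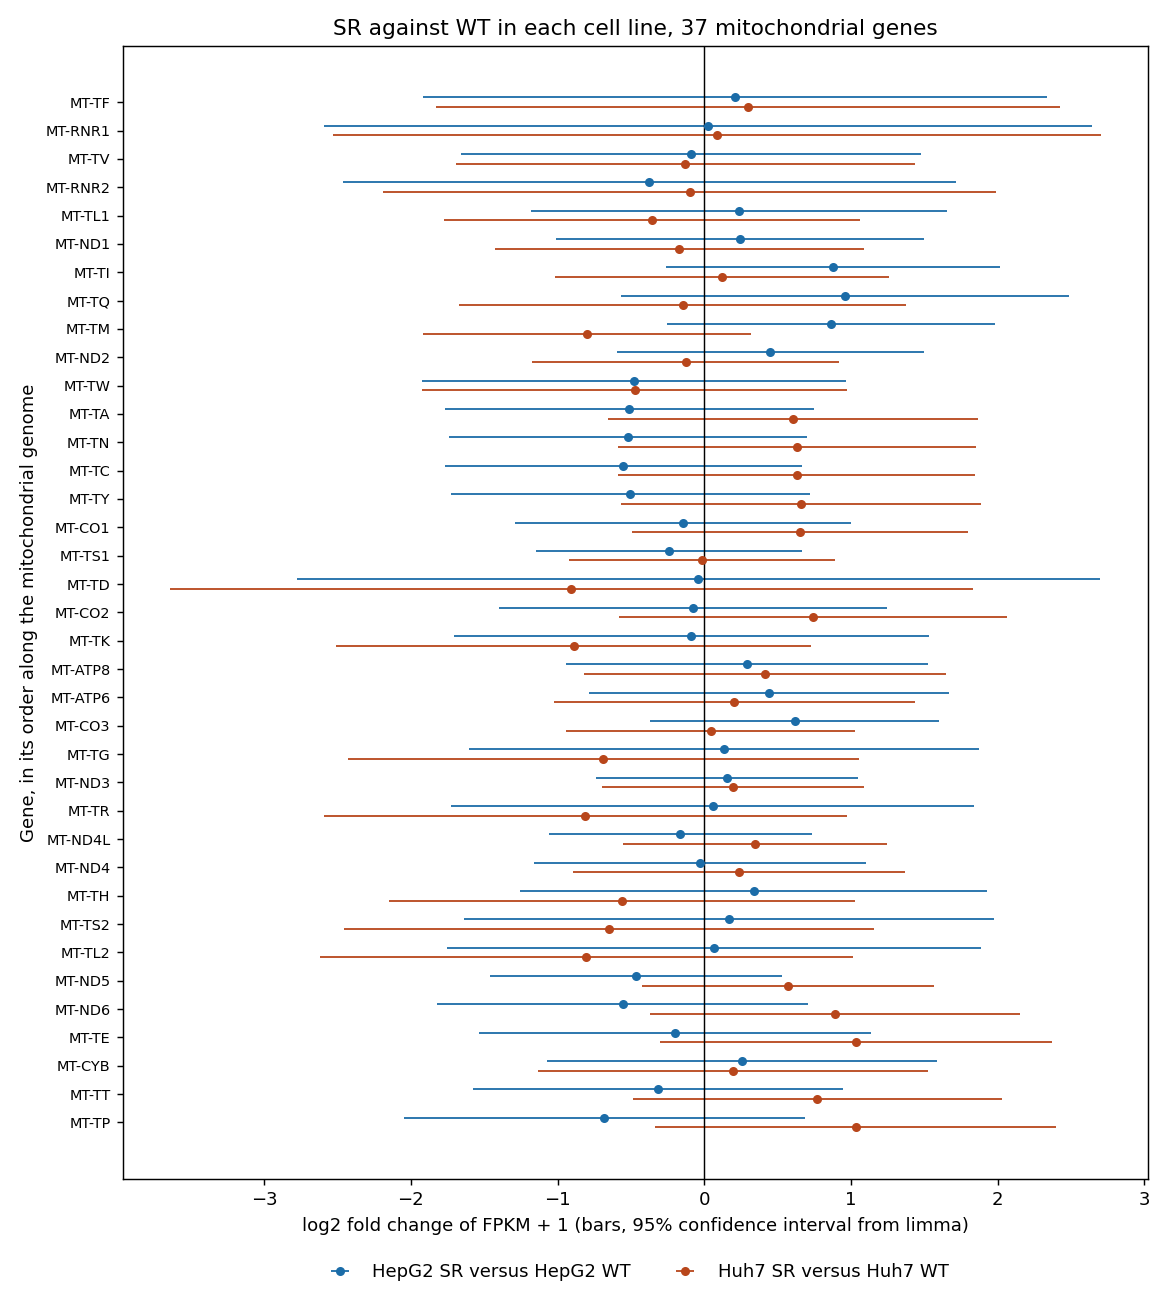
Log2 fold change of FPKM + 1 between SR and WT for the 37 genes in genome order, HepG2 in blue and Huh7 in red, with 95% confidence intervals from limma. Every interval crosses 0, and the widest are those of MT-TD and MT-RNR1.

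The libraries themselves showed which members stood on 1 side. In HepG2, both SR libraries lay above both WT libraries for 5 of 37 members (MT-CO3, MT-TF, MT-TL1, MT-TM and MT-TG) and below for 3 (MT-ND5, MT-ND6 and MT-TP), where 18.1% of all genes tested lay above and 20.1% below. In Huh7, 8 members lay above (MT-ND4L, MT-TA, MT-TN, MT-TC, MT-TY, MT-TE, MT-TT and MT-TP) and 1 below (MT-TM), where 9.06% of all genes lay above and 12.9% below. Of these, MT-TA, MT-TN, MT-TC and MT-TY lie side by side on the minus strand, and MT-TE and MT-TP lie elsewhere on that strand. MT-ND4L and MT-TT are on the plus strand. Genes of a strand share long transcripts, so the 8 are not separate observations. Between libraries of equal replicate number, a pairing added after the values were seen, the log2 ratio of SR over WT had a median over the 13 mRNAs of 0.17 and -0.12 in HepG2 and of -0.02 and 0.72 in Huh7. In the last pair, 11 of 13 mRNAs were higher in SR, led by MT-ND6 at 1.81. MT-CO3, MT-TF and MT-TI had the same sign in all 4 pairs, each higher in SR, with smallest log2 ratios of 0.01, 0.05 and 0.09. The share of all genes with equal signs was not computed, and the replicate numbers were not taken to pair the libraries. These signs therefore only describe the libraries.

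Pooled over both lines, limma called 0 of 37 members in SR versus WT, where 3.93% of all genes were called, 1.9% higher and 2.03% lower, and in 0 members did the 4 SR libraries lie apart from the 4 WT libraries, against 1.52% of genes above and 2.17% below. All 13 mRNAs had fold changes above 0, where 44.9% of all genes did, from 0.04 (MT-ND1) to 0.35 (MT-ATP8), with a median of 0.18 (0.03 without HepG2 WT replicate 1 and 0.38 without Huh7 WT replicate 1), but this count fell to 10 of 13 when every library was rescaled to a common sum and to 8 of 13 after quantile normalization. The mRNAs come from shared long transcripts and the same libraries, so 13 of 13 is not 13 separate observations. MT-CO3 had 0.33 (SE 0.29) and a 95% interval of -0.37 to 1.03.

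Huh7 was compared with HepG2 in the same model. Of the 37 members 0 were called, where 4.9% of all genes were, and 0 had 4 Huh7 libraries apart from 4 HepG2 libraries, against 2.12% of genes above and 1.69% below. All 13 mRNAs had a fold change above 0, where 52.3% of all genes did, from 0.05 (MT-CO2) to 0.57 (MT-CO3), with a median of 0.34 beside 0.03 over all genes, and after quantile normalization the median was 0.13, with 10 of 13 above 0. Leaving out single libraries gave medians from 0.16, without Huh7 WT replicate 1, to 0.49, without HepG2 SR replicate 2. MT-CO3 was at 0.57 (SE 0.29, 95% interval -0.13 to 1.27) and MT-TS1, for serine, at 0.59 (SE 0.27, 95% interval -0.06 to 1.23). Both were called in limma without a filter on low values, where 1.78% of all genes were called, and MT-TS1 also when the other genes were rescaled to a common sum (5.31% of all genes) and after quantile normalization (4.88%). The range of MT-TS1 was 455 to 684 FPKM in HepG2 and 659 to 1089 in Huh7, with a single pair of libraries overlapping.

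The interaction, that is, the difference between the SR effects of the lines, was called for 1 of 37 members, MT-TM, where 0.606% of all genes were called, 0.369% higher and 0.237% lower. MT-TM, the tRNA for methionine, went in HepG2 from 24.8 and 34.6 FPKM in WT to 36.1 and 81.1 in SR, and in Huh7 from 47.9 and 65 in WT to 37.9 and 26.5 in SR. Its SR libraries lay above the WT libraries in HepG2 and below them in Huh7, with log2 fold changes of 0.86 and -0.80 and an interaction of -1.66 (SE 0.67, 95% interval -3.24 to -0.08, limma adjusted p = 1). The call was lost when any 1 of 6 libraries was left out and was kept without HepG2 SR replicate 1 or without Huh7 SR replicate 1. Each such fit leaves 1 library in a group, so a call lost or kept there is weak evidence either way. The highest value was that of HepG2 SR replicate 2, which stood apart.

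Without the 3 libraries that stood apart, limma called 12 of 37 members in Huh7, where 11.7% of all genes were called, 7 in SR versus WT over both lines (9.48% of all genes), 6 in Huh7 versus HepG2 (8.32%), 10 in the interaction (6.2%) and 0 in HepG2 (3.12%). In Huh7 the 4 that rose were MT-ND6, MT-TE, MT-TP and MT-TT, and the 8 that fell were MT-TD, MT-TK, MT-TG, MT-TR, MT-TH, MT-TS2, MT-TL2 and MT-TM. That comparison sets Huh7 SR replicate 2 against Huh7 WT replicate 2 alone, with the spread taken from the 2 HepG2 WT libraries and 1 residual degree of freedom, and at an adjusted p under 0.05 limma again called 0. It says that these 2 libraries differed at those genes, which the values above show directly, MT-ND6 at 569.8 and 1994 FPKM and MT-TL2 at 336 and 83.5.

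The mitochondrial genes were also compared between libraries without regard to groups. Over the 13 mRNAs and 2 rRNAs, the median absolute log2 difference between replicates of a group was 0.31 to 0.89 (4 pairs), and between libraries of different groups 0.12 to 0.90 (24 pairs), with medians of 0.50 and 0.51. The smallest of all 28 was 0.12, between Huh7 WT replicate 1 and Huh7 SR replicate 1, the 2 libraries that also resembled each other in other genes. The profile of mitochondrial transcripts did not place replicates of a group closer to each other than to the other groups.

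**Figure D3:**
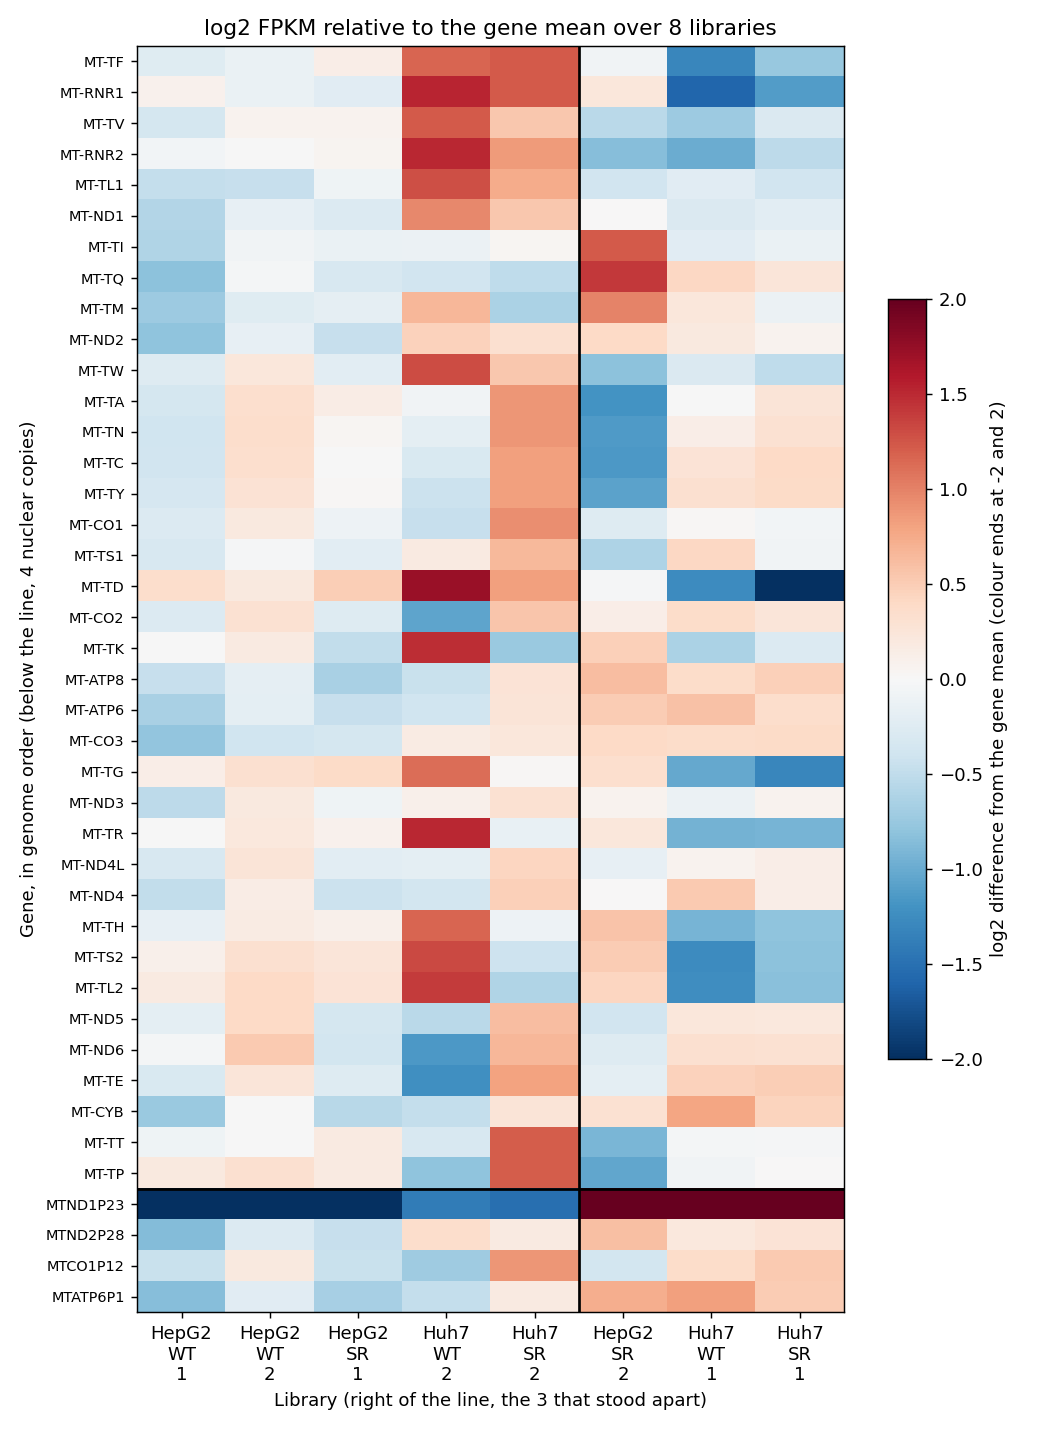
Log2 FPKM of each mitochondrial gene relative to its mean over the 8 libraries, in genome order from top to bottom, with 4 nuclear copies below the line and the 3 libraries that stood apart on the right. Huh7 WT replicate 2 is high at the rRNAs and at most plus-strand tRNAs, HepG2 SR replicate 2 is low from MT-TA to MT-TY, and MTND1P23 separates the 3 libraries on the right from the 5 on the left.

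The nuclear genome holds copies of mitochondrial genes, and reads of near-identical copies can be split between them and the members, so the FPKM of both are uncertain. Of 404 copies listed, 226 were at 0 in all libraries and 9 passed the filter. Their summed FPKM was 4.05% to 4.49% of that of the members in the 3 libraries that stood apart and 1.72% to 1.97% in the other 5. MTATP6P1, a copy of MT-ATP6 (chr1:633696-634376), was the highest, at 597 and 924 FPKM in WT and 681 and 1790.5 in SR of HepG2, and at 1904 and 779 in WT and 1533 and 1227 in SR of Huh7. MTND1P23, a partial copy of MT-ND1 (chr1:629062-629433), stood at 9.50 and 15.7 FPKM in WT and 10.2 and 683 in SR of HepG2, and at 900.3 and 26.1 in WT and 858 and 24.4 in SR of Huh7. It stood between 683 and 900 FPKM in the 3 libraries that stood apart and between 9.50 and 26.1 in the other 5, while MT-ND1 itself was not set apart in those 3. MTND2P28, MTCO1P12 and MTND4P12 were the other copies among the 5 highest, and limma called 0 of the 9 that passed the filter in any comparison of all 8 libraries. Without the 3 libraries that stood apart, 2 of the 9 were called higher in Huh7 SR versus Huh7 WT (5.53% of all genes), 1 in Huh7 versus HepG2 (4.14%) and 2 in the interaction (3.25%).

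Nuclear genes that replicate, transcribe and process the mitochondrial genome were listed by role, 54 in all, of which 53 passed the filter. POLRMT, the mitochondrial RNA polymerase, stood at 26.4 and 18.3 FPKM in WT and 24.4 and 34.6 in SR of HepG2, and at 29.2 and 31.4 in WT and 29 and 21 in SR of Huh7. TFAM, which packs the genome and opens its promoters, stood at 14.2 and 16.7 FPKM in WT and 18.4 and 16.8 in SR of HepG2, and at 14.2 and 12.4 in WT and 13.6 and 15.2 in SR of Huh7. Neither moved beyond the spread, with log2 fold changes of 0.39 and 0.18 in HepG2 and -0.28 and 0.11 in Huh7. TFB2M (0.47 and -0.06), which melts the promoter, TEFM (0.30 and -0.08), the elongation factor, LRPPRC (-0.22 and -0.03) and the poly(A) polymerase MTPAP (0.72 and 0.02) were not called in either line.

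In HepG2 SR versus HepG2 WT, limma called 3 of the 53 higher and 0 lower, where 0.877% and 1.27% of all genes were called, all at an adjusted p of 0.956. These were TWNK, the helicase of mitochondrial DNA replication (1.15, SE 0.47), SSBP1, its single-strand binding protein (0.95, SE 0.39), and FASTKD3, an RNA-binding protein of mitochondrial mRNAs (1.21, SE 0.39). TWNK stood at 5.85 and 8.59 FPKM in WT and 10.9 and 26 in SR of HepG2, and at 9.63 and 8.37 in WT and 10.6 and 8.15 in SR of Huh7, so that HepG2 SR replicate 2 was far above the rest. SSBP1 stood at 135 FPKM in the same library and between 47.9 and 78.6 in the other 7. Without that library limma called 0 of the 53 in HepG2 (0.165% of all genes higher), with TWNK at 0.55, SSBP1 at 0.56 and FASTKD3 at 0.87. In Huh7 SR versus Huh7 WT 0 of 53 were called. Over both lines limma called 2 higher, FASTKD3 (0.99, SE 0.28) and SLIRP (0.63, SE 0.25), the partner of LRPPRC, where 1.9% of all genes were called higher. The 4 SR libraries lay above the 4 WT libraries for 3 of the 53, these 2 among them, where 1.52% of all genes did so. For SLIRP the gap was narrow, 50.9 FPKM in Huh7 SR replicate 2 against 50.2 in Huh7 WT replicate 2. Without HepG2 SR replicate 2, FASTKD3 (0.82) was still called over both lines and SLIRP (0.50) was not, where 0.87% of all genes were called higher. Without all 3 libraries that stood apart, 0 of the 53 were called in HepG2 and over both lines, and 1 was called lower in Huh7, where 6.18% of all genes were. The median log2 fold change of the 53 was 0.31 in HepG2, -0.03 in Huh7 and 0.15 over both. Without the 3 libraries that stood apart these medians were 0.26, -0.21 and 0.02.

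Between the lines, limma called 3 of the 53 higher in Huh7, where 2.04% of all genes were, and 1 lower, where 2.87% were. PPARGC1A, a coactivator that raises mitochondrial content, was higher at 1.37 (SE 0.53). It stood at 0.727 and 1.73 FPKM in WT and 2.90 and 0.706 in SR of HepG2, and at 9.86 and 1.97 in WT and 8.07 and 3.85 in SR of Huh7, with its highest values in the 2 Huh7 libraries that stood apart. PNPT1, a ribonuclease of mitochondria, was higher at 0.82 (SE 0.31), and MGME1, a nuclease of mitochondrial DNA, lower at -1.20 (SE 0.50). The fourth, GABPA, a transcription factor of respiratory genes, was higher at 0.58 (SE 0.24) and is named after its value was seen. All had an adjusted p of 0.813 in limma. None of the 4 was called without HepG2 SR replicate 2, nor without all 3 libraries that stood apart, where PPARGC1A was at 0.38 and MGME1 at -0.41.

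The proteins of the mitochondrial ribosome, which works on the rRNAs and mRNAs above, come from nuclear genes. Of 78 tested, limma called MRPL17 (1.41, SE 0.49) and MRPL48 (1.14, SE 0.36) higher in HepG2 SR versus HepG2 WT, where 0.877% of all genes were called higher, MRPL23 (1.29, SE 0.41) higher in Huh7 SR versus Huh7 WT, where 0.942% were, and 0 lower in either. In SR versus WT over both lines it called MRPL17 (0.99), MRPL23 (0.83) and MRPL48 (0.76) higher, where 1.9% of all genes were, and 0 lower. There 64 of 78 lay above 0, with a median of 0.26, or 0.06 without the 3 libraries that stood apart. MRPL17 stood at 41.7 FPKM in HepG2 SR replicate 2 and between 8.34 and 19.7 in the other 7 libraries. Without that library MRPL17 was at 0.82 in HepG2, against 1.41 with it. That fit leaves 1 library in HepG2 SR, so it cannot decide whether the calls in HepG2 rest on replicate 2. Above 0 lay 62 of 78 in HepG2 and 58 in Huh7, with medians of 0.35 and 0.18, beside -0.03 and -0.05 over all genes. The medians were 0.26 in HepG2 and -0.15 in Huh7 without the 3 libraries that stood apart, so the sign in Huh7 turned. In Huh7 versus HepG2 4 were called lower and 0 higher, where 2.87% of all genes were called lower, MRPS7 at -0.76 (SE 0.21), with MRPS23, MRPL28 and MRPL12 named after their values were seen, at -0.65, -0.65 and -0.59. Without the 3 libraries that stood apart, 1 was called higher in HepG2 (MRPL48, 1.34% of all genes), 1 higher (MRPL23, 5.53%) and 2 lower (6.18%) in Huh7, and 1 higher (4.14%) and 3 lower (4.19%) in Huh7 versus HepG2, among the 3 MRPS7 and MRPL12. With all 8 libraries, the rRNAs that these proteins bind were called in 0 of these comparisons.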

How the data were processed

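Oligo(dT)-selected RNA was sequenced in 8 libraries of 4 groups, and the authors deposited a table of FPKM for each library, so that replicates were not pooled. The submitters' processing notes name fastp 0.20.0 and GRCh38. The aligner, the quantification tool, the annotation, and whether counting used strand or multimapped reads are not given in the sources used here. FPKM hold no read totals, so depth is unknown and the number of libraries limits the precision.

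Of 63241 identifiers, 62666 had a symbol and 58228 a position and length in GENCODE 29 (GRCh38), also the source of the printed sequences. Members were all MT- genes. The 3 highest and 3 lowest tRNA genes by mean, 8 machinery genes and the 10 called list genes with the largest change were named by rule. The members and lists were chosen with earlier results of these data known. Groups followed the labels alone.

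The deposited FPKM are not counts, so limma 3.58.1 in R 4.3.3 was used on log2(FPKM + 1) with a trend, a mean per group, and a filter on low values (1 FPKM or more in 2 libraries or more, 4 residual degrees of freedom, median posterior standard deviation 0.484). Fold changes are on this scale, which understates changes of low genes. Shares were compared with exact permutation tests in SciPy 1.17.1. The steps were tested on simulated data. Alternatives were other pseudocounts, filters, scalings and fits, a replicate block, and fewer libraries.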

Additional observations from a re-analysis of the deposited data

Results flagged for a closer look

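The SR libraries lay on opposite sides of the WT libraries in the 2 cell lines for 2 of the 37 genes (5.41%), both tRNA genes, where 1.94% of all genes tested did so. Neither was called in SR versus WT in either line. For MT-TM, for methionine, the HepG2 SR libraries lay above and the Huh7 SR libraries below their WT libraries, and the difference between the effects was -1.66 on the log2 scale (SE 0.67, 95% interval -3.24 to -0.08, limma adjusted p = 1). For MT-TP, for proline, it was the reverse, with 180.0 and 198 FPKM in HepG2 WT, 179 and 76.6 in HepG2 SR, 151 and 90.6 in Huh7 WT, and 158 and 365 in Huh7 SR, and a difference between the effects of 1.71 (SE 0.81, 95% interval -0.22 to 3.65, limma adjusted p = 1), which was not called. HepG2 SR replicate 1 of MT-TP lay just below the lower WT library, so that its place rests on a small gap.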

How the results depend on the processing

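Of 3219 values of single members under an alternative, 2814 kept their direction and their side of the threshold, 85 passed it only there, 6 lost a call and 314 changed sign without a call on either side. Of 87 medians of the 13 mRNAs, 85 moved by less than the median standard error of these mRNAs in the main fit. The other 2 were those of Huh7 (0.72) and of the interaction (0.91) without the 3 libraries that stood apart. In HepG2 the sign of the median turned without HepG2 WT replicate 1 (-0.20) and without HepG2 SR replicate 2 (-0.17, also without the 3 libraries that stood apart). In Huh7 it turned after quantile normalization (-0.03). In the interaction it turned after quantile normalization (-0.22), without HepG2 WT replicate 2 (-0.05) and without HepG2 SR replicate 1 (-0.04). Over both lines the median ran from 0.03 to 0.38 over the left-out libraries. Rescaling the other genes to a common sum moved the median of all genes in HepG2 from -0.03 to -0.14, and that of the 13 mRNAs from 0.16 to 0.03.

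In Huh7 versus HepG2 limma called 2 members without a filter (1.78% of all genes), 1 with the other genes rescaled (5.31%) and 1 after quantile normalization (4.88%). The single call of the interaction became 0 at an adjusted p under 0.05. Without the 3 libraries that stood apart, the calls were 12 in Huh7 (11.7% of all genes), 7 over both lines (9.48%), 6 between the lines (8.32%) and 10 in the interaction (6.2%).

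Leaving out each library in turn, where the lone library left in a group is assumed to vary like the others, gave 0 to 3 calls in HepG2, 0 to 9 in Huh7, 0 to 6 in SR versus WT over both lines, 0 to 6 in Huh7 versus HepG2 and 0 to 10 in the interaction. The upper ends came without HepG2 SR replicate 1 for HepG2 (11.5% of all genes called), without Huh7 WT replicate 1 for Huh7 (5.39%), both lines (6.69%) and the interaction (2.23%), and without Huh7 WT replicate 2 for the lines (9.87%). Other libraries moved the counts less: without Huh7 SR replicate 1 there were 2 calls in Huh7 (3.74%), 1 between the lines (1.98%) and 2 in the interaction (3.06%), without HepG2 SR replicate 1 there were 1 over both lines (8.42%), 1 between the lines (6.15%) and 5 in the interaction (6.23%), and without Huh7 WT replicate 1 there were 4 between the lines (3.63%). In the interaction, MT-TM was not called without HepG2 WT replicate 1 or 2, or without HepG2 SR replicate 2. Nor was it called without Huh7 WT replicate 1 or 2, or without Huh7 SR replicate 2. Each of these fits leaves 1 library in a group, so the lost call is no result about the members. SR minus WT of the share ran from -3.51 to 1.38 points in HepG2, -1.81 to 5.27 in Huh7 and -1.93 to 1.67 over both, where it was -1.09 without HepG2 WT replicate 1. The difference of the lines ran from 3.59 to 6.05.

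With the replicate number as a block, limma called 0 members in the 4 comparisons and 1 in the interaction, as without it, and the differences of the share stayed at -1.07, 1.73, 0.330 and 5.06 points. Deviations of libraries with equal numbers correlated over genes between -0.56 (HepG2 SR with Huh7 SR) and 0.80 (Huh7 WT with Huh7 SR). With 2 numbers only, the numbers were not taken to pair the libraries. In Huh7, replicates 1 and 2 thus differed alike in WT and SR, and the fit without a block counted this as spread. The block was common to all groups and HepG2 SR ran the other way, so the block could not take up this split. A block for Huh7 alone was not fitted.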
